A study of Mus musculus with 24 samples.

Results

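The 4 genes described here are Bdnf, Creb1, Camk4 and Crem, which were measured among 757 endogenous genes of a mouse neuroinflammation probe panel in 24 brain libraries. They were chosen by name, with their values after neonatal hypoxic-ischemic brain injury (HIBI) in these libraries already known, so the differences between HIBI and sham pups below are given as a description and not as a test. The libraries came from 8 CD1 mouse pups of both sexes on postnatal day 9. In the 4 HIBI pups (1, 4, 5 and 7) the right common carotid artery was cauterized, after which the pups breathed 8% oxygen for 30 min. The 4 sham pups (2, 3, 6 and 8) had the artery exposed without ligation and stayed in room air. Right cortex, right striatum/thalamus and right cerebellum were taken from each pup 30 min later, which gave 6 groups of 4 libraries, and the same number names the same pup in every region. The cerebellum lies outside the territory of the cauterized artery, so in this model it meets low oxygen without the loss of carotid flow. The striatum and thalamus were dissected as a single block.

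CREB, the product of Creb1, is a transcription factor that binds the cAMP response element (CRE) and is switched on by phosphorylation when calcium or cAMP rises in a neuron. CaMKIV, the product of Camk4, is a calcium and calmodulin dependent kinase of the neuronal nucleus that phosphorylates CREB. Crem encodes relatives of CREB that bind the same element, and an internal promoter of the gene gives rise to the inducible repressor ICER, which damps CREB targets. Bdnf, the gene of brain-derived neurotrophic factor, is a classic CREB target in neurons, and its product acts through the TrkB receptor on neuronal survival and synapse growth. Transcription of Bdnf starts at several separate promoters, and the panel gives a single count for each gene, so start sites and isoforms could not be told apart here.

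The promoter windows in RefSeq (mouse assembly GRCm38.p6, 250 bases before to 50 bases after a start site) were searched for the CRE, TGACGTCA, and for its half-site, TGACG or CGTCA, which read as each other on the opposite strands. The half-site lies within the full element. Of 7 Bdnf windows 1 held the half-site and 0 held the full element, and the single Creb1 window held neither. Among all 32851 windows of this length, 20.81% held the half-site and 1.79% the full element. A match is a description of the letters and not of a bound site. The Bdnf window with the match is shown because, of the windows searched for this target gene, it alone carries the letters of the half-site. It lies at chr2:109692186-109692485 on the + strand, and the half-site, in capitals, begins 35 bases before the start site.
Bdnf window 3: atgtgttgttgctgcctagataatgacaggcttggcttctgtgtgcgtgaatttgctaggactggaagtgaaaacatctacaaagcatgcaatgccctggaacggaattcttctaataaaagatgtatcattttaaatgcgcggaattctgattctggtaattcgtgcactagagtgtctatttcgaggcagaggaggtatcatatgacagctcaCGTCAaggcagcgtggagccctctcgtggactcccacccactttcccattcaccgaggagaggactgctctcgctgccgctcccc

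All 4 genes were well measured. The lowest raw count was 115 for Bdnf, 406 for Creb1, 2874 for Camk4 and 154 for Crem, against a mean plus 2 SD of the negative control probes of 29.5 to 43.55 per library. Library totals were 855129 to 1134995 counts, and 606 to 655 endogenous genes lay above that background. Levels below are counts scaled to a common library size (normalized counts). They are compared between libraries for 1 gene at a time and never between genes, since probes differ in capture. The dissections carried their regional marks. Tbr1, a transcription factor of cortical excitatory neurons, was at 842 to 1064 in the 8 cortex libraries and at most 139.7 elsewhere. Slc17a6, a glutamate transporter of thalamic neurons, was at 8038 or more in the striatum/thalamus and at most 6266 elsewhere. Striatum/thalamus libraries that stood apart were those of HIBI pups 4 and 5, in which Ttr, a choroid plexus gene, was at 3116.8 and 2396.2 against 69.8 and 77.8 in HIBI pups 7 and 1 and 68.5 to 146.9 in sham pups. The probes of Gfap and Mbp, defining markers of astrocytes and oligodendrocytes, were not among those used here. The tissue is bulk, so fewer cells of a type and less RNA per cell cannot be told apart.

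**Figure D1:**
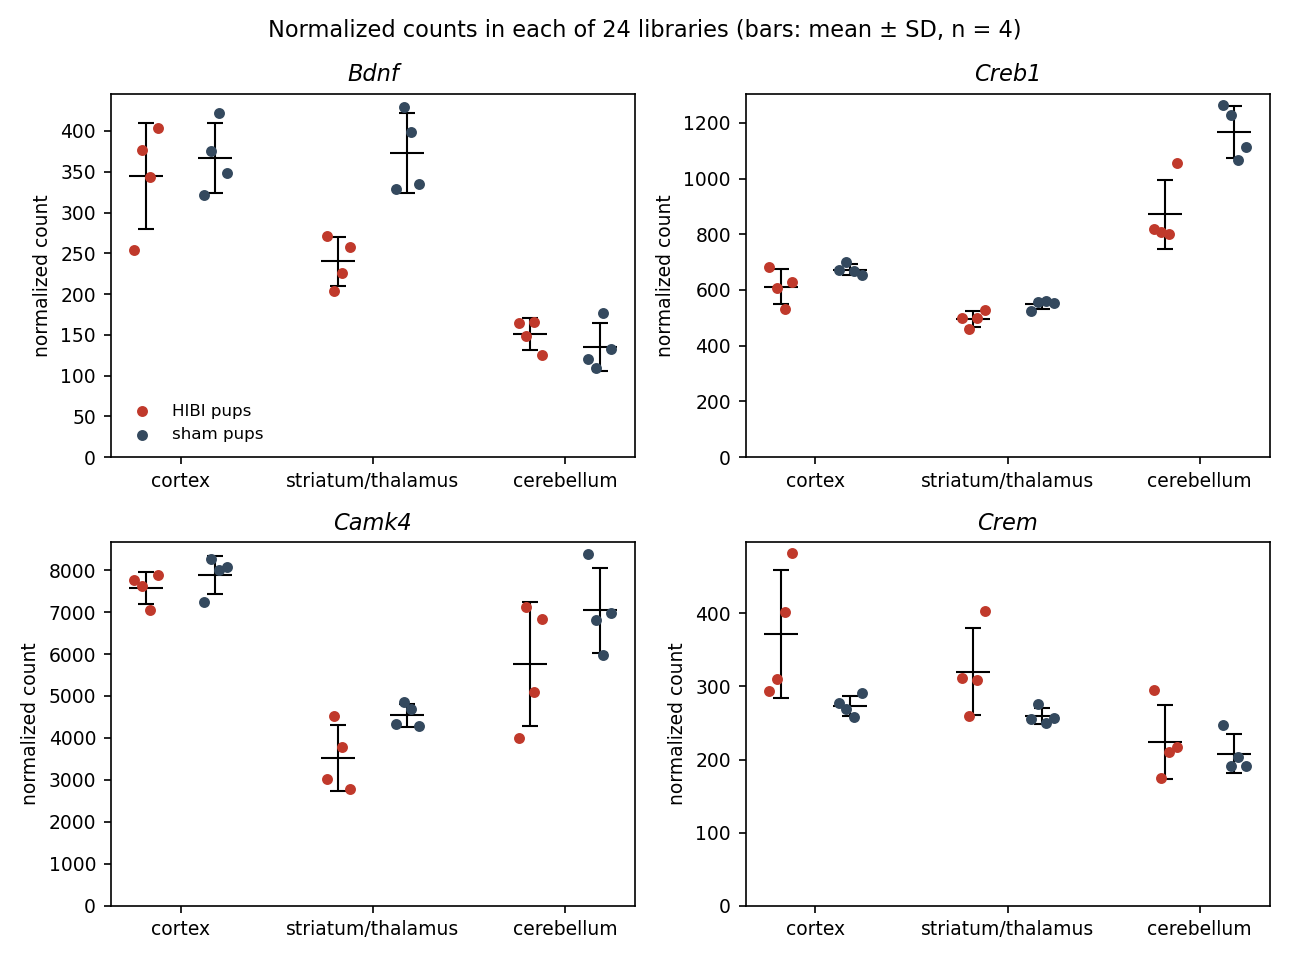
Normalized counts of Bdnf, Creb1, Camk4 and Crem (y axis, starting at 0) in the cortex, striatum/thalamus and cerebellum of 4 HIBI pups (red, left) and 4 sham pups (dark, right). Points are single libraries and bars are the mean ± SD. Bdnf was lowest in the cerebellum, Creb1 was highest there, and Bdnf in the striatum/thalamus was the 1 group in which HIBI and sham pups were apart and the fitted difference passed the threshold (adjusted p under 0.05).

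Bdnf, the neurotrophin, had its lowest level in the cerebellum of sham pups and forebrain levels that could not be told apart. It was at 321.8, 375.7, 422.1 and 348.1 in the cortex, at 328.6, 429.7, 399.3 and 335.0 in the striatum/thalamus and at 120.1, 109.7, 177.2 and 132.9 in the cerebellum of sham pups 2, 3, 6 and 8. Every forebrain library lay above every cerebellar one. The cortex averaged 366.9 ± 42.9 and the cerebellum 135.0 ± 29.7 (SD, n = 4 each), a log2 difference of 1.51 (SE 0.11, edgeR quasi-likelihood test over 740 genes with pup as a block, adjusted p = 5.18e-07). The striatum/thalamus, at 373.1 ± 49.4, exceeded the cerebellum by 1.58 on the log2 scale (SE 0.11, edgeR adjusted p = 5.39e-07). Cortex and striatum/thalamus could not be told apart, with a log2 difference of -0.07 (SE 0.10, 95% interval -0.26 to 0.13, edgeR adjusted p = 0.668).

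Creb1, the CREB gene itself, showed the opposite regional order in sham pups. Its counts in sham pups 2, 3, 6 and 8 were 670.1, 698.8, 669.0 and 655.1 in the cortex, 525.0, 555.5, 560.8 and 554.4 in the striatum/thalamus and 1264.9, 1228.3, 1065.4 and 1113.4 in the cerebellum. The 3 regions did not overlap. The cerebellum held the most, 1168 ± 94.1, and the cortex differed from it by -0.73 on the log2 scale (SE 0.06, edgeR adjusted p = 9.98e-07) and the striatum/thalamus by -0.98 (SE 0.06, edgeR adjusted p = 2.07e-07). The cortex exceeded the striatum/thalamus by 0.26 (SE 0.06, edgeR adjusted p = 0.00534). That last difference was 0.15 with adjusted p = 0.0675 when libraries were scaled to the panel's reference genes, a scaling that moved the median of all genes by -0.10 in this comparison.

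Camk4, the CREB kinase, was highest in the cortex, and its cerebellar level varied most between sham pups. It was at 7232.3, 8255.0, 8002.5 and 8081.8 in the cortex, at 4326.8, 4864.2, 4678.8 and 4280.3 in the striatum/thalamus and at 8389.2, 6801.6, 5975.0 and 6988.4 in the cerebellum of sham pups 2, 3, 6 and 8. Every striatum/thalamus library was below every other sham library. The cortex exceeded the striatum/thalamus by 0.76 on the log2 scale (SE 0.09, edgeR adjusted p = 5.27e-05), and the striatum/thalamus differed from the cerebellum by -0.52 (SE 0.09, edgeR adjusted p = 0.000335). Cortex and cerebellum overlapped, with a log2 difference of 0.24 (SE 0.09, edgeR adjusted p = 0.0342). This call was lost without sham pup 3 (0.20, adjusted p = 0.142), sham pup 6 (0.17, adjusted p = 0.137) or sham pup 8 (0.23, adjusted p = 0.0984), and without the filter on low counts (0.22, adjusted p = 0.0537).

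Crem, the CREB relative, was higher in both forebrain regions than in the cerebellum of sham pups. It was at 277.4, 268.6, 258.4 and 290.4 in the cortex, at 255.4, 275.9, 249.9 and 256.6 in the striatum/thalamus and at 246.7, 191.7, 203.0 and 190.6 in the cerebellum of sham pups 2, 3, 6 and 8. The forebrain libraries lay within a narrow band, and sham pup 2 alone came close to it in the cerebellum. The log2 difference from the cerebellum was 0.47 for the cortex (SE 0.09, edgeR adjusted p = 0.000549) and 0.43 for the striatum/thalamus (SE 0.09, edgeR adjusted p = 0.00108). Cortex and striatum/thalamus differed by 0.04 (SE 0.08, 95% interval -0.13 to 0.20, edgeR adjusted p = 0.773), and the sign turned to -0.06 with scaling to the reference genes.

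In sham pups, 4 of the 4 genes passed the threshold between cortex and cerebellum, where 67.2% of all 740 genes tested did. All 4 also passed between striatum/thalamus and cerebellum, where 64.6% did, and 2 of 4, Creb1 and Camk4, between cortex and striatum/thalamus, where 40.0% did. The sham libraries were also the controls of the contrasts on which the genes were chosen, so these p-values, too, come from libraries whose values were known. Regional differences were thus the rule across the panel and not particular to these genes.

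**Figure D2:**
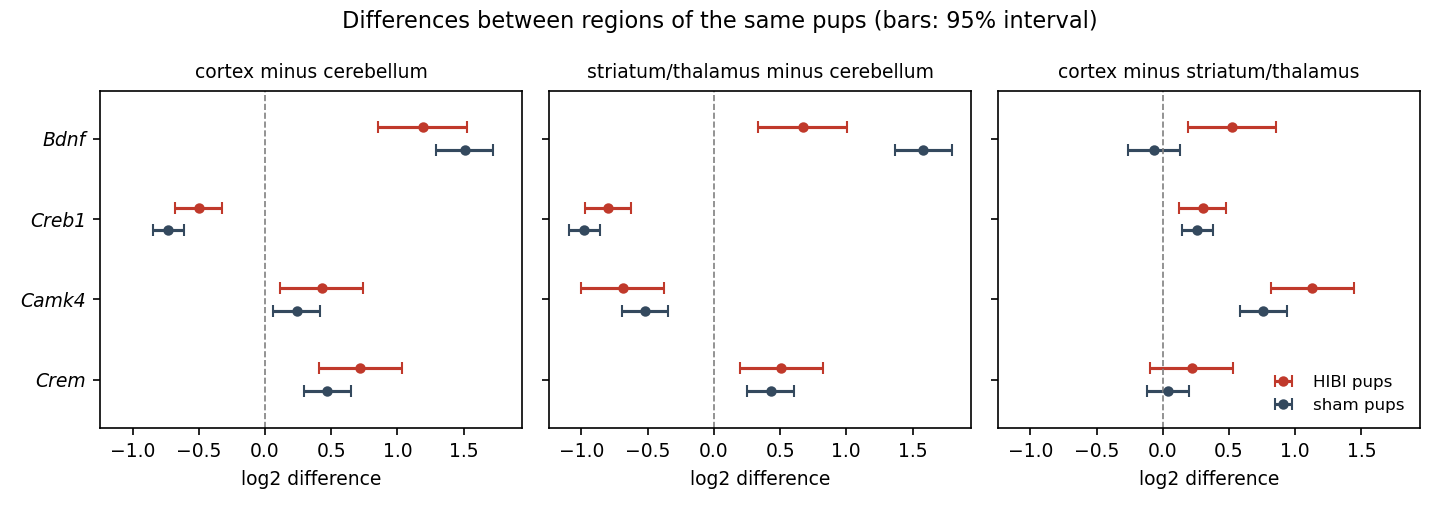
Log2 differences between regions of the same pups for each gene, in HIBI pups (red, upper) and sham pups (dark, lower), from edgeR fits of 12 libraries each. Points are estimates and bars are 95% intervals. The striatum/thalamus minus cerebellum difference of Bdnf was 0.67 in HIBI pups and 1.58 in sham pups, and the other genes kept the sign of each difference in both arms.

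The same regional differences in the HIBI pups are other animals, but their libraries also entered the contrasts on which the genes were chosen, so they are given as values. Between cortex and cerebellum of HIBI pups the log2 differences were 1.19 for Bdnf (SE 0.17), -0.50 for Creb1 (SE 0.09), 0.43 for Camk4 (SE 0.16) and 0.72 for Crem (SE 0.16). All 4 passed, where 54.8% of 732 genes did, and Camk4 no longer passed without HIBI pup 1 (0.25) or HIBI pup 5 (0.43). Between striatum/thalamus and cerebellum they were 0.67 for Bdnf (SE 0.17), -0.80 for Creb1 (SE 0.09), -0.69 for Camk4 (SE 0.16) and 0.51 for Crem (SE 0.16). All 4 passed again, where 48.5% of genes did, and Crem no longer passed without HIBI pup 4 (0.49), HIBI pup 5 (0.50) or HIBI pup 7 (0.39), or without the Ttr-rich libraries (0.61).

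Between cortex and striatum/thalamus of HIBI pups, Bdnf differed by 0.52 (SE 0.17), Creb1 by 0.30 (SE 0.09), Camk4 by 1.13 (SE 0.16) and Crem by 0.22 (SE 0.16). Bdnf, Creb1 and Camk4 passed by edgeR and DESeq2, 3 of 4, where 27.0% of genes did by edgeR, and limma-voom called 2, without Bdnf. Bdnf no longer passed without HIBI pup 4 (0.40), HIBI pup 5 (0.50) or HIBI pup 7 (0.47), nor Creb1 without HIBI pup 1 (0.25), HIBI pup 4 (0.27), HIBI pup 5 (0.38) or HIBI pup 7 (0.32). Camk4 passed in each of these fits. Within a pup, the cortex over striatum/thalamus ratio of Bdnf was 0.937, 1.85, 1.52 and 1.56 in HIBI pups 1, 4, 5 and 7, and 0.979, 0.874, 1.06 and 1.04 in sham pups 2, 3, 6 and 8. The ratio was above every sham pup in HIBI pups 4, 5 and 7, while HIBI pup 1, whose cortex held the least Bdnf, lay among the sham pups.

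After HIBI, Bdnf was lower in the striatum/thalamus, and its values in the other regions overlapped. There it was at 271.7, 204.3, 226.0 and 258.0 in HIBI pups 1, 4, 5 and 7, against 328.6, 429.7, 399.3 and 335.0 in sham pups. The highest HIBI library lay below the lowest sham library. HIBI pups averaged 240.0 ± 30.5 and sham pups 373.1 ± 49.4 (SD, n = 4 each), so Bdnf fell to 64.3% of the sham mean, a log2 difference of -0.64 (SE 0.12, 95% interval -0.88 to -0.40). In the cortex Bdnf was at 254.6, 377.0, 343.0 and 403.2 in HIBI pups, against 321.8, 375.7, 422.1 and 348.1 in sham pups. These ranges overlapped, and the log2 difference was -0.09 (SE 0.15, 95% interval -0.37 to 0.20), with the sign turned to 0.05 without HIBI pup 1. In the cerebellum it was at 164.8, 148.0, 166.3 and 125.0 in HIBI pups, against 120.1, 109.7, 177.2 and 132.9 in sham pups. The cerebellar difference was 0.18 (SE 0.17, 95% interval -0.17 to 0.52) with overlapping ranges.

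In the striatum/thalamus, Bdnf was the 1 member of 4 past the adjusted threshold, where 2.73% of 732 genes were, and at an unadjusted p under 0.05 edgeR had 4 of the 4 and 134 of the 732 genes. Nothing is read from these counts, since the genes were chosen with that contrast known. The call was lost without HIBI pup 5 (-0.62) and likewise when any of sham pups 3 (-0.57), 6 (-0.61) and 8 (-0.69) was left out. In those 4 fits 5 or 6 genes of the panel passed, against 20 with all libraries. Without the Ttr-rich libraries of HIBI pups 4 and 5 the Bdnf difference was -0.50 (SE 0.14) and did not pass. These pups had the lowest Bdnf counts of the group, and the part of choroid plexus tissue in the result was not tested. Of the 21 neuron markers measured, 1 fell (Slc17a6) and 2 rose (Islr2 and Eomes) past the threshold in the HIBI striatum/thalamus. At an unadjusted p under 0.05 edgeR had 11 of the 21 neuron markers, beside the 134 of 732 genes. By sign alone 9 of the 21 were higher and 12 lower. Islr2 averaged 1110 ± 96.2 in HIBI and 730.0 ± 107.0 in sham pups (log2 difference 0.60, SE 0.11), and Eomes, also the panel's cerebellar marker, 72.2 ± 14.7 in HIBI and 30.5 ± 9.86 in sham pups (SD, n = 4 each, log2 difference 1.23, SE 0.24). Sham Eomes lay near the background, so its fold is rough. Both calls were lost in the 4 fits in which that of Bdnf was lost, at 0.52 to 0.61 for Islr2 and 1.04 to 1.35 for Eomes, and Eomes did not pass without the Ttr-rich libraries (1.01), in a fit of all 24 libraries (1.24) or with the negative controls subtracted (2.34). Rbfox3, a general neuronal marker, averaged 2263 in HIBI and 2318 in sham striatum/thalamus, and Bdnf per Rbfox3 was 0.0970 to 0.110 in HIBI pups against 0.143 to 0.179 in sham pups, also apart. Slc17a6, the thalamic transporter, fell to 9078 ± 1072 in HIBI pups, against 12770 ± 1046 in sham pups (SD, n = 4 each, log2 difference -0.49, SE 0.09). That Slc17a6 call was lost in the same 4 fits, where the difference was -0.46 to -0.50, and in a fit of all 24 libraries (-0.49, adjusted p = 0.243), and kept without the Ttr-rich libraries (-0.55). The neuron markers, 21 of 33 listed, summed to 78030 to 89080 in HIBI and 87320 to 91780 in sham libraries. Of 3 thalamus or striatum markers, 1 was lower (Slc17a6) and 2 were higher in HIBI pups, Dlx1 at 728.3 ± 217.0 in HIBI and 509.2 ± 158.5 in sham pups and Dlx2 at 78.1 ± 16.2 in HIBI and 45.4 ± 14.9 in sham pups (SD, n = 4 each), with neither past the threshold. Their sum, nearly all of it Slc17a6, was 8980 to 10890 in HIBI and 12040 to 14210 in sham libraries. The part of the makeup of the dissected block in the Bdnf result was not tested. Of 10 oligodendrocyte markers 10 were lower in HIBI pups, 0 passed by edgeR, DESeq2 or limma-voom, and 0 had an unadjusted p under 0.05, with sums of 19400 to 44840 in HIBI and 28610 to 48060 in sham libraries. Sums also overlapped for 6 astrocyte markers (18640 to 25120 in HIBI and 18640 to 20520 in sham libraries), 11 microglia markers (5162 to 6491 in HIBI and 5237 to 5837 in sham libraries) and 6 endothelial markers (3572 to 4162 in HIBI and 3541 to 3637 in sham libraries). Of the 11 microglia markers 7 were higher and 4 lower, and of the 6 astrocyte markers 5 were higher and 1 lower. At an unadjusted p under 0.05 edgeR had 3 of these 11 (C1qa, C1qb and C1qc, all higher) and 1 of these 6. Over all genes it had 134 of 732, and 0 of these markers passed. Of the 6 endothelial markers 3 were higher and 3 lower. Slc2a1 alone among them passed, by edgeR, DESeq2 and limma-voom, with a log2 difference of 0.73 (SE 0.08).

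Creb1 had its lower HIBI values mainly in the cerebellum. There it was at 819.9, 807.0, 802.6 and 1055.5 in HIBI pups 1, 4, 5 and 7, against 1264.9, 1228.3, 1065.4 and 1113.4 in sham pups 2, 3, 6 and 8. The groups did not overlap, although HIBI pup 7 lay just under the lowest sham library. The means were 871.2 ± 123 in HIBI and 1168 ± 94.1 in sham pups (SD, n = 4 each), with a log2 difference of -0.41 (SE 0.09, 95% interval -0.59 to -0.23). Striatum/thalamus counts of Creb1 were 498.9, 458.3, 498.5 and 526.7 in HIBI pups, against 525.0, 555.5, 560.8 and 554.4 in sham pups, a log2 difference of -0.15 (SE 0.06). HIBI pup 7 overlapped the lowest sham library there. In the cortex it was at 681.1, 608.3, 532.7 and 627.9 in HIBI pups, against 670.1, 698.8, 669.0 and 655.1 in sham pups, a log2 difference of -0.13 (SE 0.08) with overlapping ranges.

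In the cerebellum 0 of the 4 genes passed by edgeR, where 0.42% of 714 genes did, and at an unadjusted p under 0.05 edgeR had 1 of the 4, Creb1, and 117 of the 714 genes. DESeq2 also called Creb1 (-0.41), among 15 of 714 genes, and limma-voom called 0 of the 4. By edgeR, Creb1 passed without HIBI pup 7 (-0.49), where 7 of 709 genes did. It also passed in a fit of all 24 libraries (-0.42), where 49 of 745 genes did. In the fit of the 8 cerebellar libraries 3 of 714 genes did. Scaling to the reference genes moved the median of all cerebellar genes by 0.11 and gave -0.30 for Creb1, so part of the size rests on the scaling. Hdac2, a histone deacetylase whose level followed Creb1 over all libraries, was at 3696 ± 340 in HIBI and 4312 ± 363 in sham cerebellum (SD, n = 4 each, log2 difference -0.21, SE 0.07) and did not pass. The sum of the 21 neuron markers overlapped where Creb1 did not, at 65720 to 69840 in HIBI libraries and 59790 to 68730 in sham libraries of the cerebellum. Single markers differed there without passing, with Slc17a7 at 1839 ± 353 in HIBI and 2730 ± 534 in sham pups and Eomes at 308.1 ± 150.7 in HIBI and 593.7 ± 215.3 in sham pups (SD, n = 4 each). Ttr was at 2073.4, 910.5, 766.9 and 2197.7 in HIBI pups 1, 4, 5 and 7, against 8465.8, 3767.0, 138.1 and 2869.1 in sham pups 2, 3, 6 and 8. Ttr put the pups in the same order as Creb1 in both cerebellar groups and in 0 of the 4 forebrain groups, a pattern seen after the values were known, and the part of choroid plexus or other tissue in the Creb1 difference was not tested.

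Camk4 was lower on average after HIBI in the striatum/thalamus and cerebellum, with overlapping ranges in both. In the striatum/thalamus it was at 3012.8, 4512.1, 3787.9 and 2787.8 in HIBI pups 1, 4, 5 and 7, against 4326.8, 4864.2, 4678.8 and 4280.3 in sham pups. The Ttr-rich libraries of HIBI pups 4 and 5 were the 2 highest of the HIBI group. The log2 difference was -0.37 (SE 0.14, 95% interval -0.64 to -0.10) and did not pass, while it was -0.51 and passed without HIBI pup 4, and was -0.65 (SE 0.07) and passed without both Ttr-rich libraries. In these fits 56 of 728 and 50 of 719 genes of the panel passed, against 20 of 732 with all libraries. Leaving out the Ttr-rich libraries therefore put Camk4 in the place of Bdnf as the 1 member called. In the cerebellum Camk4 was at 3995.5, 7119.3, 5092.2 and 6826.4 in HIBI pups, against 8389.2, 6801.6, 5975.0 and 6988.4 in sham pups, a log2 difference of -0.28 (SE 0.17, 95% interval -0.61 to 0.05). In the cortex it was at 7768.5, 7621.2, 7039.1 and 7876.0 in HIBI pups, against 7232.3, 8255.0, 8002.5 and 8081.8 in sham pups, a log2 difference of -0.05 (SE 0.06) that turned to 0.04 with scaling to the reference genes.

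Camk4 ran with Slc17a7 from pup to pup. Slc17a7, the glutamate transporter of cortical and cerebellar granule neurons, was among the 3 genes of 745 whose deviations from their group means were most like those of Camk4 (r = 0.85 over 24 libraries, which share depth and dissection). Slc17a7 in the striatum/thalamus was at 794.9, 1914.6, 952.6 and 660.6 in HIBI pups 1, 4, 5 and 7, against 1151.8, 1351.2, 1317.8 and 1141.1 in sham pups 2, 3, 6 and 8. In the cerebellum it was at 1408.0, 2247.9, 1751.4 and 1949.5 in HIBI pups, against 3377.8, 2473.8, 2150.3 and 2917.0 in sham pups. The order of the 4 pups by Slc17a7 was the same as their order by Camk4 in 5 of the 6 groups, HIBI cortex being the exception, a pattern that was picked out after the values were seen. Rbfox3 gave the same order as Camk4 in 2 of 6 groups, both cerebellar, where it was at 4810.2, 10319.9, 6567.6 and 8957.8 in HIBI pups and at 9924.5, 7672.3, 7556.5 and 8773.4 in sham pups. Slc17a6 gave the same order as Camk4 in 0 of 6 groups. Camk4 per Rbfox3 in the cerebellum was 0.690 to 0.831 in HIBI pups and 0.791 to 0.887 in sham pups, a narrower spread relative to the mean than that of the Camk4 counts. The ratio was 1.176 to 2.141 in HIBI and 1.828 to 2.097 in sham striatum/thalamus. In the cortex it was 1.313 to 1.495 in HIBI and 1.326 to 1.637 in sham pups. Its relative spread was wider than that of the counts in HIBI striatum/thalamus and both cortex groups, and about the same in sham striatum/thalamus. The part of the neuronal content of each piece in the Camk4 differences was not tested.

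**Figure D3:**
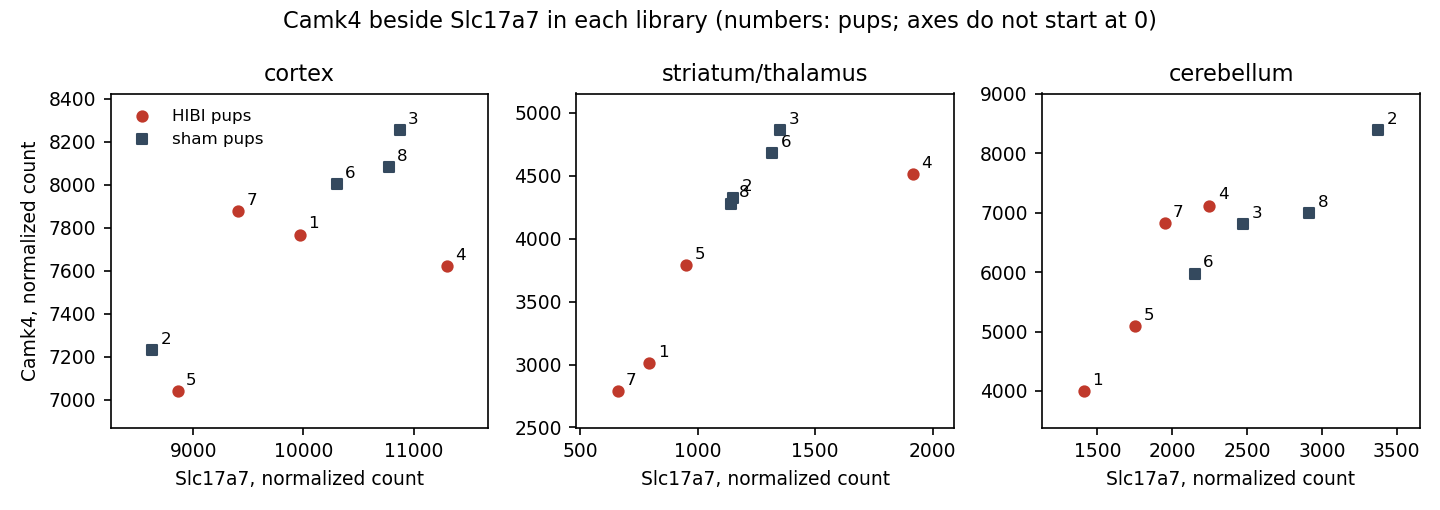
Camk4 against Slc17a7 (normalized counts, axes not starting at 0) in each library of the cortex, striatum/thalamus and cerebellum, for HIBI pups (red circles) and sham pups (dark squares), numbered by pup. In the striatum/thalamus and cerebellum, pups with more Slc17a7 had more Camk4 within each arm, for example HIBI pup 4 at 1914.6 and 4512.1 in the striatum/thalamus.

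Crem was the 1 gene of the 4 with higher HIBI means in all 3 regions. In the cortex it was at 293.8, 309.5, 402.4 and 482.2 in HIBI pups 1, 4, 5 and 7, against 277.4, 268.6, 258.4 and 290.4 in sham pups 2, 3, 6 and 8. The lowest HIBI library lay just above the highest sham library, and HIBI pups were spread far wider, at 372.0 ± 87.8 against 273.7 ± 13.6 in sham pups (SD, n = 4 each). The log2 difference was 0.45 (SE 0.15, 95% interval 0.15 to 0.75). In the striatum/thalamus Crem was at 311.1, 259.6, 308.2 and 402.6 in HIBI pups, against 255.4, 275.9, 249.9 and 256.6 in sham pups, a log2 difference of 0.30 (SE 0.13) in which HIBI pup 4 lay among the sham pups. HIBI pup 7 had the highest Crem count in both forebrain regions. In the cerebellum it was at 295.6, 175.3, 209.8 and 216.5 in HIBI pups, against 246.7, 191.7, 203.0 and 190.6 in sham pups, a log2 difference of 0.13 (SE 0.16) that turned to -0.05 without HIBI pup 1. In the cortex 0 of the 4 genes passed by edgeR, DESeq2 or limma-voom, where 2.33% of 731 genes did by edgeR, and at an unadjusted p under 0.05 edgeR had 1 of the 4, Crem, and 69 of the 731 genes.

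**Figure D4:**
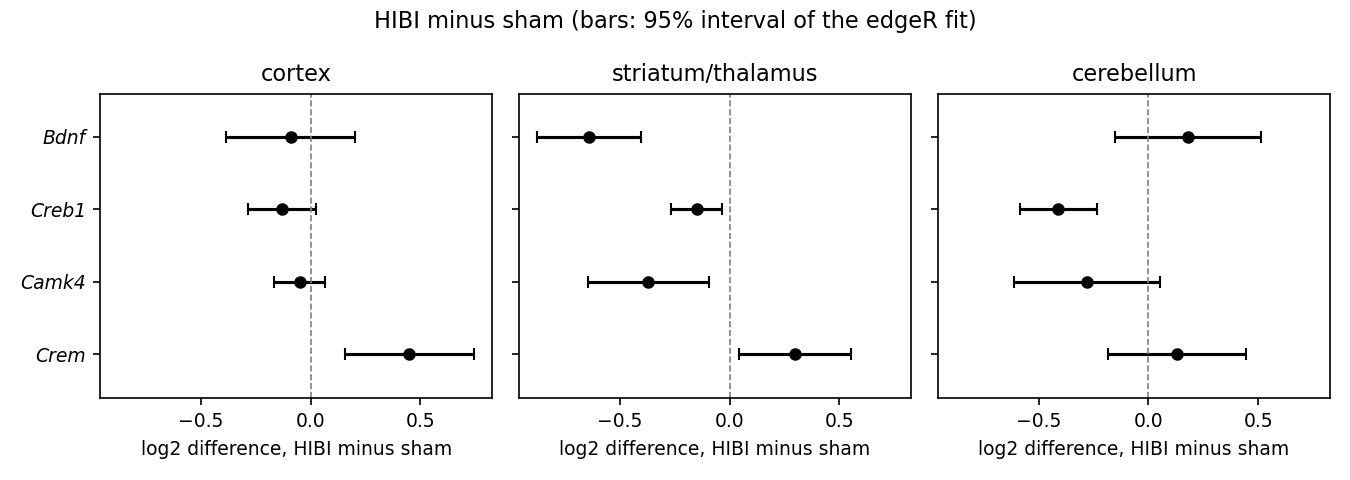
Log2 differences, HIBI minus sham, of the 4 genes in each region, from edgeR fits of the 8 libraries of that region. Points are estimates and bars are 95% intervals. Bdnf lay at -0.64 in the striatum/thalamus and Creb1 at -0.41 in the cerebellum, while the estimates for Crem were above 0 in each region.

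The differences between regions in the HIBI effect were estimated in a fit of all 24 libraries, and these too hold the contrasts on which the genes were chosen. For Bdnf the effect in the striatum/thalamus was -0.81 (SE 0.21) relative to the cerebellum, and the effect in the cortex was 0.54 (SE 0.20) relative to the striatum/thalamus. For Creb1 the effect relative to the cerebellum was 0.29 in the cortex (SE 0.11) and 0.28 in the striatum/thalamus (SE 0.11). Between striatum/thalamus and cerebellum 0 of the 4 genes passed by edgeR, where 0.805% of 745 genes did. At an unadjusted p under 0.05 edgeR had 2 of the 4 (Bdnf and Creb1) and 103 of the 745 genes. DESeq2 called 11 genes, with Bdnf (-0.84) among them, and limma-voom called 6 genes and 0 of the 4. By edgeR, Bdnf passed without HIBI pup 1 (-0.83). Between cortex and cerebellum 0 of the 4 passed by edgeR, where 0.0% of genes did. At an unadjusted p under 0.05 edgeR had 1 of the 4 (Creb1) and 77 of the 745 genes. DESeq2 called 2 genes, 0 of them from the 4, and limma-voom called 0. Crem passed there without HIBI pup 1, at 0.58, against 0.32 (SE 0.19) with all pups. How many genes of the panel passed without HIBI pup 1 is not given here. Nothing is therefore read from this pass or from that of Bdnf. Between cortex and striatum/thalamus 0 of the 4 passed by edgeR, where 0.0% of genes did. At an unadjusted p under 0.05 edgeR had 1 of the 4 (Bdnf) and 46 of the 745 genes. DESeq2 called 1 gene, which was not one of the 4, and limma-voom called 0.

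Genes around the pathway were taken from 4 lists, none of which holds the 4 genes themselves, and each list is set beside the median of all genes tested, which lay between -0.01 and 0.00 on the log2 scale in each region. Of 13 kinases and calcium channel genes upstream of CREB, 0 passed in any region by edgeR, DESeq2 or limma-voom. Over all genes, 2.33% passed by edgeR in the cortex, 2.73% in the striatum/thalamus and 0.42% in the cerebellum. At an unadjusted p under 0.05 edgeR had 1 of the 13 in the cortex, 3 in the striatum/thalamus and 0 in the cerebellum. Over all genes it had 69 of 731, 134 of 732 and 117 of 714 in these regions. The list's median log2 differences were 0.03 in the cortex, -0.01 in the striatum/thalamus and 0.12 in the cerebellum. The members with the smallest p were Prkar2a, a regulatory subunit of the cAMP dependent kinase, at -0.16 in the cortex (SE 0.05) and 0.17 in the cerebellum (SE 0.08), and Prkcq, a protein kinase C, at -0.30 in the striatum/thalamus (SE 0.10). Beside them stood Prkaca, the catalytic subunit of the cAMP dependent kinase, at -0.07 in the cortex (SE 0.05), Grin2b, an NMDA receptor subunit, at -0.16 in the striatum/thalamus (SE 0.06), and Akt1, a survival kinase, at 0.12 in the cerebellum (SE 0.07).

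Among 10 coactivators, phosphatases and deacetylases that act with or against CREB, 1 passed, in the striatum/thalamus by each of the 3 tools. There 20 of all 732 genes passed by edgeR, 42 by DESeq2 and 22 by limma-voom. Ppp3cb, a catalytic subunit of the calcium dependent phosphatase calcineurin, fell in the striatum/thalamus to 6100 ± 184.3 in HIBI pups, against 7086 ± 184.9 in sham pups (SD, n = 4 each, log2 difference -0.22, SE 0.04, edgeR adjusted p = 0.0217). It did not pass with reference-gene scaling (-0.20, adjusted p = 0.0846), nor without HIBI pup 5 (-0.23) or any of sham pups 3 (-0.22), 6 (-0.22) and 8 (-0.21). The lists were chosen with earlier results of these data known, so this call is a description. In the cortex Ppp3cb was at -0.07 (SE 0.04), and Ppp3r2, a calcineurin regulatory subunit, at -0.21 (SE 0.15). In the cerebellum the histone deacetylase Hdac1 was at -0.30 (SE 0.09), and the list's medians were -0.05 in the cortex, -0.01 in the striatum/thalamus and -0.07 in the cerebellum. Other neurotrophins, their receptors and adaptors had 0 of 10 called by edgeR or limma-voom in each region. At an unadjusted p under 0.05 edgeR had 0, 3 and 2 of them in the cortex, striatum/thalamus and cerebellum. Over all genes it had 69 of 731, 134 of 732 and 117 of 714 in these regions. DESeq2 called 1 of the 10, Pik3cb in the striatum/thalamus, among 42 of 732 genes. Pik3cb, a catalytic subunit of the phosphoinositide kinase that TrkB recruits, was at -0.21 in the striatum/thalamus (SE 0.05) and 0.18 in the cerebellum (SE 0.07), and its relative Pik3ca at -0.15 in the striatum/thalamus (SE 0.05). In the cortex the neurotrophin receptor Ngfr (0.35, SE 0.33) and the adaptor Pik3r5 (0.27, SE 0.22) were close to the background. The median of this list was -0.01 in the cortex, -0.02 in the striatum/thalamus and 0.07 in the cerebellum.

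Genes known as targets of CREB or of neuronal activity rose in the forebrain. Of 11 measured, 8 rose and 0 fell in the cortex, with a median log2 difference of 1.75, and 6 rose and 0 fell in the striatum/thalamus, with a median of 1.08, where 2.33% and 2.73% of all genes passed in the cortex and striatum/thalamus. With limma-voom 6 rose in the cortex, where 11 of 731 genes passed, and 5 in the striatum/thalamus, where 22 of 732 did. These counts are of genes past the threshold. By sign alone, 9 of the 11 were higher and 2 lower in the cortex. In the striatum/thalamus 10 were higher and 1 lower, and in the cerebellum 8 were higher and 3 lower. The list was chosen with results of these libraries known, so its direction is not independent evidence. With 1 pup left out, 4 to 8 rose in the cortex, with 4 without sham pups 3 or 6 and 5 without sham pups 2 or 8 or HIBI pups 5 or 7. Calls fell over the whole panel in these cortex fits. Without sham pup 3 or 6, 7 genes passed, and in the fits with 5 targets 8 to 12 did, against 17 with all pups. In the striatum/thalamus 3 to 7 rose, with 3 when sham pup 3, 6 or 8 was left out, where 5 genes of the panel passed against 20 with all pups. Without the Ttr-rich libraries 8 rose, where 50 of 719 genes passed. None of these fits had a target that fell. Fos, the classic immediate early transcription factor, averaged 6875 ± 4634 in HIBI cortex and 353.1 ± 85.9 in sham cortex (SD, n = 4 each), a log2 difference of 4.29 (SE 0.54), and was higher by 3.32 in the striatum/thalamus (SE 0.40). Egr1, another early transcription factor, was at 7487 ± 2364 in HIBI and 3031 ± 697 in sham cortex (1.31, SE 0.24), and at 3063 ± 1435 in HIBI and 622.0 ± 51.0 in sham striatum/thalamus (2.30, SE 0.31). Arc, a synaptic immediate early gene, rose in the cortex by 1.93 (SE 0.36), and Jun, the partner of Fos, by 1.75 (SE 0.31). In the striatum/thalamus Arc (0.95, SE 0.29) and Jun (0.96, SE 0.25) did not pass by edgeR. Gadd45g, a stress-responsive gene, rose by 2.11 in the cortex (SE 0.31) and 1.08 in the striatum/thalamus (SE 0.17). Ptgs2, the inducible cyclooxygenase, rose by 1.60 in the cortex (SE 0.30) and 1.68 in the striatum/thalamus (SE 0.28). Its sham mean in the striatum/thalamus, 32.9, lay near the background, so that fold is rough. Maff and Atf3, stress-induced bZIP factors, rose in both regions, with means of 173.4 to 367.5 in HIBI pups and 25.0 to 42.9 in sham pups, where the sham values lay near the background, so their folds are rough. In the cerebellum 0 of 11 passed by edgeR or limma-voom while 5 did by DESeq2 (Arc, Egr1, Gadd45g, Maff and Ptgs2), and 7 had an unadjusted p under 0.05 by edgeR. By edgeR 4 passed in a fit of all 24 libraries and 2 without HIBI pup 7. Over all genes of the cerebellum, DESeq2 called 15 of 714, and edgeR had 117 of 714 at an unadjusted p under 0.05. The fit of all 24 libraries called 49 of 745 genes, and that without HIBI pup 7 called 7 of 709. The cerebellar median was 0.82, and Egr1 was at 1201 ± 817 in HIBI and 308.9 ± 45.0 in sham pups (SD, n = 4 each), with Maff at 1.37 (SE 0.29).

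The genes whose levels over all 24 libraries were most like each member, among 745 genes, differed between members. For Bdnf they were Map2k4, a kinase upstream of JNK (r = 0.96), Fgf13, a regulator of neuronal sodium channels (r = 0.95), and Ptger3, a prostaglandin receptor (r = 0.93). For Creb1 they were Asph, an aspartyl hydroxylase (r = 0.97), Hdac2 (r = 0.96) and Traf2, an adaptor of TNF receptors (r = 0.96). For Camk4 they were Brd2, a bromodomain protein (r = 0.93), Pik3r2 (r = 0.93) and the p38 kinase gene Mapk14 (r = 0.89). For Crem the values were lower, with Cd33 (r = 0.76), the lamin gene Lmna (r = 0.76) and Ptgs2 (r = 0.75). These correlations are a description, carried largely by the differences between regions, which all libraries of a region share. Between members, Bdnf and Creb1 ran opposite to each other over the 24 libraries (r = -0.75), and Bdnf ran with Crem (r = 0.61).

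After each gene's own group means were subtracted, which leaves the spread between pups, the nearest genes changed. For Bdnf they were Pnoc, a neuropeptide precursor (r = 0.71), Map2k4 (r = 0.68) and Tspan18 (r = 0.67). For Creb1 they were Smarca5, a chromatin remodeler (r = 0.82), Ncaph, a condensin subunit (r = 0.77), and Mcm6, a subunit of the replication helicase (r = 0.76). For Camk4 they were the cell cycle factor E2f1 (r = 0.87), the histone acetyltransferase Kat2b (r = 0.86) and Slc17a7 (r = 0.85). For Crem they were Tm4sf1 (r = 0.68), the complement receptor C3ar1 (r = 0.68) and Cd83 (r = 0.63). Between members, these deviations were related by r = -0.40 for Bdnf and Creb1 and by r = 0.35 for Bdnf and Crem.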

How the data were processed

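The authors hybridized RNA of each tissue piece to the nCounter Mouse Neuroinflammation panel, which counts barcoded probes without amplification or alignment, and deposited 1 raw count per probe and library (784 probes, 24 libraries). A further table deposited by the authors holds normalized group means (a signal made in nSolver, whose settings no source used here gives) next to fold changes and p-values. Only its probe classes were used. The paper states that every mRNA past its own threshold was higher after HIBI. The lower Bdnf in the striatum/thalamus described here is thus not among the calls of the paper. The authors also measured Bdnf by quantitative PCR, and the text of the paper gives no such value for this gene alone. Control and reference probes were left out of library sizes. The total count per library bounds the precision of low genes. The p-values of HIBI against sham set a difference against the spread between pups. Where pup is a block, they set it against the spread left within pups.

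Genes with at least 20 counts in at least 4 libraries were fitted with edgeR 4.0.16 (R 4.3.3, TMM scaling, quasi-likelihood F test, two-sided, Benjamini-Hochberg over all genes tested, threshold 0.05). HIBI and sham pups were compared within each region (8 libraries, no block), regions within each arm with pup as a block (12 libraries), and differences of effects over all 24 libraries. The block follows the pup number in the titles. Deviations of same-pup libraries from their group means correlated by -0.06 to 0.56 (median 0.21). Same-group libraries differed beyond sampling noise (lowest chi-square per degree of freedom 5.199 over 36 pairs). Alternatives were DESeq2 1.42.0, limma-voom (limma 3.58.1), reference-gene scaling, no filter, subtraction of the negative controls, a single fit, no block, each pup left out and, chosen after seeing the data, leaving out the Ttr-rich libraries. The scripts were tested on simulated data.

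Named genes are the 4 members, the called genes of 4 pathway lists in each region or the 2 of smallest p where none passed, the 3 genes most like each member by either correlation, and regional markers. A gene that this rule names is not reported here. The members and lists were chosen with earlier results of these data known. Levels shown use 1 TMM scaling of all 24 libraries, and 95% intervals take the normal quantile of the SE. Sequences are from RefSeq promoter windows. Camk4 and Crem windows were not used here.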

Additional observations from a re-analysis of the deposited data

Results flagged for a closer look

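In the cerebellum of HIBI pups, Creb1 was at 1055.5 normalized counts in pup 7, against 819.9, 807.0 and 802.6 in pups 1, 4 and 5. The gap of pup 7 to the nearest library took 0.932 of the range of its group, more than Dixon's 95% criterion for 4 samples allows. Of 24 groups of 4 libraries examined for the 4 genes, this was the 1 so marked, and chance marks about 1 in 20. With pup 7 the Creb1 difference from sham pups was -0.41 and without it -0.49.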

How the results depend on the processing

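Over the alternatives tried for the single genes, 547 of 596 values kept their direction and their side of the threshold, 30 no longer passed, 9 newly passed and 10 changed sign. The count of the 4 genes called moved by over 1.5 times as follows. HIBI against sham in the cerebellum gave 1 with DESeq2 and 1 in a single fit of all 24 libraries, against 0. Over all genes these settings called 15 of 714 and 49 of 745, against 3 of 714. Cortex against striatum/thalamus gave 1 in sham pups with reference-gene scaling, against 2, and in HIBI pups 1 with reference-gene scaling and 1 without the Ttr-rich libraries, against 3. The difference of effects between striatum/thalamus and cerebellum gave 1 with reference-gene scaling (Bdnf -0.92) and 1 with DESeq2, against 0. Smaller moves were 3 against 4 between cortex and cerebellum, in sham pups without the filter and in HIBI pups without the block, 3 against 4 between striatum/thalamus and cerebellum of HIBI pups without the Ttr-rich libraries, and, with limma-voom or without the block, 2 against 3 between cortex and striatum/thalamus of HIBI pups. The sign turned for Camk4 in the cortex after HIBI (0.04) and Crem between cortex and striatum/thalamus of sham pups (-0.06) with reference-gene scaling, which moved the median of all genes by -0.11 to 0.11. The causes were not tested.

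With each pup left out in turn, the counts of the 4 genes called after HIBI ran over 0 to 1 in the cerebellum, 0 to 0 in the cortex and 0 to 2 in the striatum/thalamus. Over all genes these fits called 0 to 7 in the cerebellum, 7 to 22 in the cortex and 5 to 56 in the striatum/thalamus. The counts of the 4 ran over 1 to 2 between cortex and striatum/thalamus of HIBI pups. For differences of effects they ran over 0 to 1 against the cerebellum for either forebrain region and 0 to 0 between the forebrain regions. The counts over all genes are not given here for those last fits, and nothing is read from any of these ranges. The signs that turned were those of Crem in the cerebellum (-0.05 to 0.22), Bdnf in the cortex (-0.17 to 0.05), and the differences of effects of Camk4 between striatum/thalamus and cerebellum (-0.18 to 0.13) and of Creb1 between cortex and striatum/thalamus (-0.04 to 0.09). Without the replicate block, Camk4 between cortex and cerebellum (0.40, adjusted p = 0.0772) and Creb1 between cortex and striatum/thalamus (0.30, adjusted p = 0.0506) of HIBI pups no longer passed by edgeR, and no other call changed. The 4 pups in each arm limit the precision of every difference.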

Other observations

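HIBI pup 1 lay at an end of its group in some cases, as did the other HIBI pups. In each group of 4 some pup must lie at either end, so these values do not set pup 1 apart. HIBI pup 1 had the lowest Bdnf count of the 4 HIBI pups in the cortex, 254.6 against 343.0 to 403.2 in the other HIBI pups. In the cerebellum it had the highest Crem count, 295.6 against 175.3 to 216.5, the lowest Camk4 count, 3995.5 against 5092.2 to 7119.3, and the lowest Rbfox3 count, 4810.2 against 6567.6 to 10319.9. HIBI pup 7 had the highest Crem count of the HIBI pups in the cortex (482.2) and striatum/thalamus (402.6). It also had the highest Creb1 count in the striatum/thalamus (526.7) and cerebellum (1055.5). Over all libraries the deviations of Camk4 and Crem from their group means ran opposite to each other (r = -0.48 over 24 libraries, a description).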
